A study of Mus musculus with 51 samples.

Results

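The genes described here encode the meiotic chromosome axis: the HORMA-domain proteins Hormad1 and Hormad2, the ATPase Trip13, the axial element proteins Sycp2 and Sycp3, and the cohesin subunits Rec8, Rad21l, Smc1b, Smc3 and Stag3. The set was chosen by name, as meiotic axis and cohesin genes, and holds 10 of the 20722 protein-coding genes on the 19 autosomes. A gene was counted as having a peak when a called peak overlapped, by at least 1 bp, a window reaching 500 bp up- and downstream of the 5′ end (transcription start site, TSS) of any of its protein-coding transcripts in GENCODE M21. The data were 20 lists of ChIP-Seq peaks on the mouse mm10 assembly, 1 list per library. All nuclei came from whole testis of adult wild-type male C57Bl/6J mice, were fixed, and were sorted by flow cytometry into 5 stages, from leptonema and zygonema through early and late pachynema to diplonema. H3K4me3 was profiled with the EpiCypher antibody in experiments 1 and 2 of each stage, H3K4me2/3 with the Abcam antibody in experiment 2, and H3K9ac in experiment 1. The sort selected nuclei that stained for SCP3, the product of Sycp3, so this protein was present in every population by design.

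During meiotic prophase each chromosome is organised as a row of loops anchored on an axis. Ring-shaped cohesin complexes, built from a pair of SMC proteins, a kleisin and a STAG subunit, hold sister chromatids and form the base of this axis, on which SYCP2 and SYCP3 assemble. HORMAD1 and HORMAD2 coat the axis before synapsis, where HORMAD1 promotes DNA breaks and both take part in monitoring pairing. TRIP13 strips the HORMADs off where homologues have synapsed. H3K4me3 marks the nucleosomes next to active promoters, H3K9ac accompanies it there, and H3K4me2 extends further from the TSS.

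Peaks were present at 8 of the 10 genes, in 8 or more of the 10 H3K4me3 lists, whereas Rec8 and Rad21l had no H3K4me3 peak at their GENCODE TSS in any list. Hormad1, Trip13, Stag3, Sycp2 and Sycp3 carried a peak in all 10 H3K4me3 lists, as did 18.0% of all protein-coding genes. Smc1b had a peak in 9 lists, and Hormad2 and Smc3 each in 8. A total of 45.9% of all genes had no peak in any of the 10 lists, and 32.5% had none in any of the 20.

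Because a list gives only the start and end of each peak, the measurements are the presence of a peak and its width. The lists held 238528 peaks, from 4883 to 15699 in the H3K4me3 lists, from 17561 to 30943 in the H3K4me2/3 lists and from 516 to 16003 in the H3K9ac lists. The lists do not give the depth behind a peak, and a gene without a peak may carry the mark below the calling threshold. A mark carried by fewer nuclei cannot be told apart from less of the mark per nucleus. In the sorted populations, the TSS of Stra8, the gene of the leptonema sorting marker, had an H3K4me3 peak only in the 2 leptonema lists. Sycp1 had one in 8 of 10 lists, and Hist1h1t, the gene of the late sorting marker H1t, only in leptonema experiment 1 and zygonema experiment 2 and in no later list. Of 10 Sertoli, Leydig and blood cell markers, 0 to 3 had a peak in the 4 leptonema and zygonema libraries (Sox9, Wt1 and Gata4) and 0 to 1 in the 6 later libraries (Insl3). Of 5 spermatogonial markers, 1 to 3 had a peak in the early libraries and 0 to 1 in the later ones, with Etv5 called in all 4 early libraries, Dmrt1 in 3 H3K4me3 lists, Kit in 1, and Gfra1 and Zbtb16 in none. The 4 spermatid genes (Prm1, Prm2, Tnp1 and Acrv1) had none in the 10 lists.

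Promoter sequences are shown for the genes on which the results turn. Each is given 5′ to 3′ on the strand of the gene, from the GRCm38.p6 assembly (mm10), in lower case with CpG dinucleotides in capitals, and stops before any annotated exon. Sycp3 and Hormad1 had peaks in every H3K4me3 list, and Smc1b shares its promoter with a divergent gene.
Sycp3, chr10:88459369-88459568, plus strand: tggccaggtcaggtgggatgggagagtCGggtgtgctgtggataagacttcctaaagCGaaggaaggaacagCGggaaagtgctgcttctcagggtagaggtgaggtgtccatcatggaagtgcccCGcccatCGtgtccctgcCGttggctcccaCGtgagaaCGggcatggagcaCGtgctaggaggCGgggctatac
Hormad1, chr3:95559477-95559676, plus strand: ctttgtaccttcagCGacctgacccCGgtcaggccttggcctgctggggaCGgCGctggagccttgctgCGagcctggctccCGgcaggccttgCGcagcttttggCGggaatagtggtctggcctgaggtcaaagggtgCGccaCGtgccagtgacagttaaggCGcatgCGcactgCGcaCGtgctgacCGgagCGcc
Smc1b, chr15:85131965-85132059, minus strand: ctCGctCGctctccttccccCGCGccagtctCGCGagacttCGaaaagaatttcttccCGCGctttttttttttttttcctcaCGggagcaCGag
Rec8 had no H3K4me3 peak.
Rec8, chr14:55617802-55618001, plus strand: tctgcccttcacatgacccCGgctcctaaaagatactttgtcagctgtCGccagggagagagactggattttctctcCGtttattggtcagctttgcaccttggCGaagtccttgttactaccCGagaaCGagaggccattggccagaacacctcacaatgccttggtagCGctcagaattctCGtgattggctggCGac
For Rad21l, the first sequence lies directly before the exon that holds the GENCODE TSS, and the second before the start of the predicted RefSeq transcripts, further upstream.
Rad21l, GENCODE TSS, chr2:151668566-151668765, minus strand: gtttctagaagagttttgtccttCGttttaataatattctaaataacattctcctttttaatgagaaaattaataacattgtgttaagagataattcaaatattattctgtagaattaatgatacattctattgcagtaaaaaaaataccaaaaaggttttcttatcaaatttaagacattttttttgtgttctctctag
Rad21l, predicted RefSeq start, chr2:151670623-151670822, minus strand: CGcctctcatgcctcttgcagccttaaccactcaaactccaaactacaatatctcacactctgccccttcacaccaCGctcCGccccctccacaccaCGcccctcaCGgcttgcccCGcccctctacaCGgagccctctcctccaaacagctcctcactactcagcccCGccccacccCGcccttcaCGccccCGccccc

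**Figure D1:**
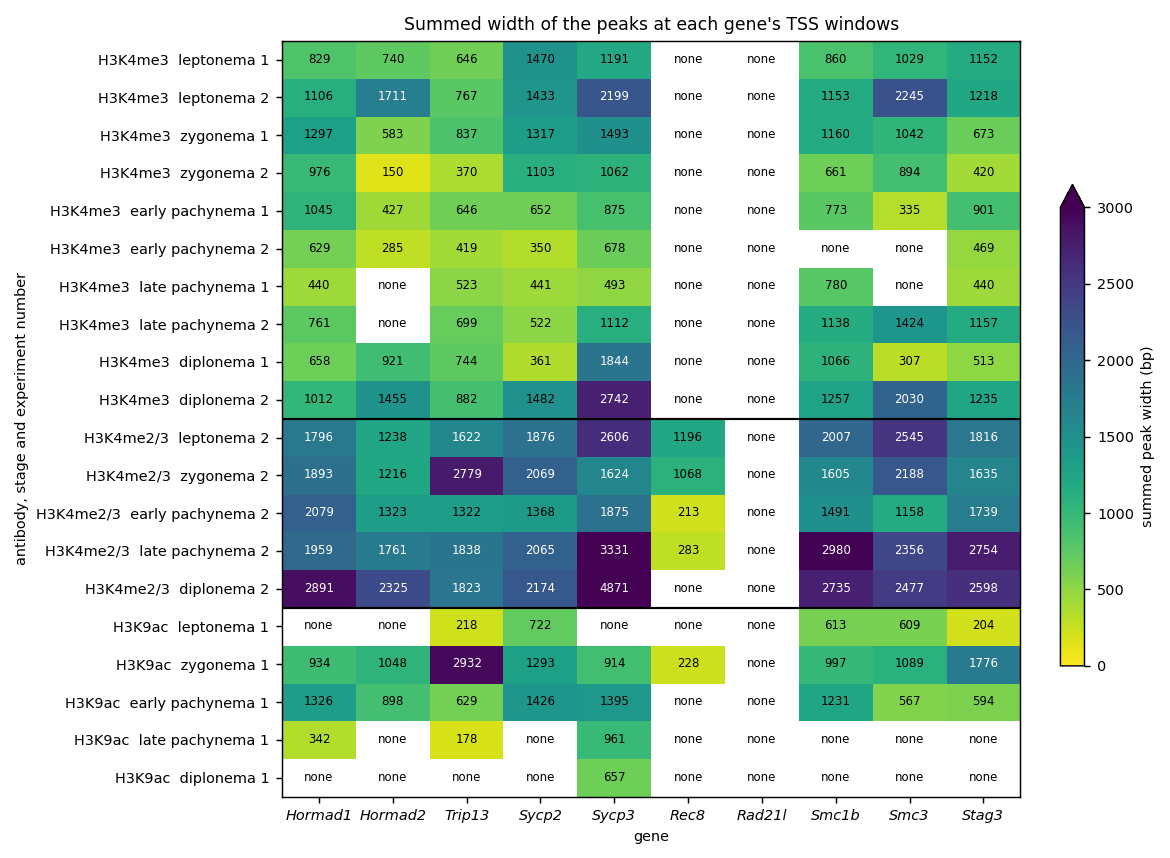
Summed width in bp of the peaks at the TSS windows of each gene (columns) in each of the 20 lists (rows, by antibody, stage and experiment number). White cells marked none had no peak, colours are capped at the top of the scale, and black lines separate the 3 antibodies. The columns of Rec8 and Rad21l are empty in the 10 H3K4me3 rows, and Sycp3 has the highest value, 4871 bp, in H3K4me2/3 diplonema.

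The number of genes with an H3K4me3 peak was then compared with all genes, list by list. At leptonema, experiments 1 and 2 each gave 8 of the 10 genes, against 38.7% and 46.3% of all genes. Zygonema also gave 8 and 8, against 36.2% and 35.3%. At early pachynema there were 8 and 6 genes, against 33.6% and 25.2%. Late pachynema had the fewest, 6 and 7 genes, against 26.4% and 39.7%. Diplonema gave 8 and 8, against 28.7% and 46.0%. The genes that dropped out between stages were Smc1b and Smc3 in early pachynema experiment 2, Hormad2 and Smc3 in late pachynema experiment 1, and Hormad2 in late pachynema experiment 2. Counts for the 10 genes were above the background in each list, and no test was made of this, since the set was chosen as genes of meiosis.

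**Figure D2:**
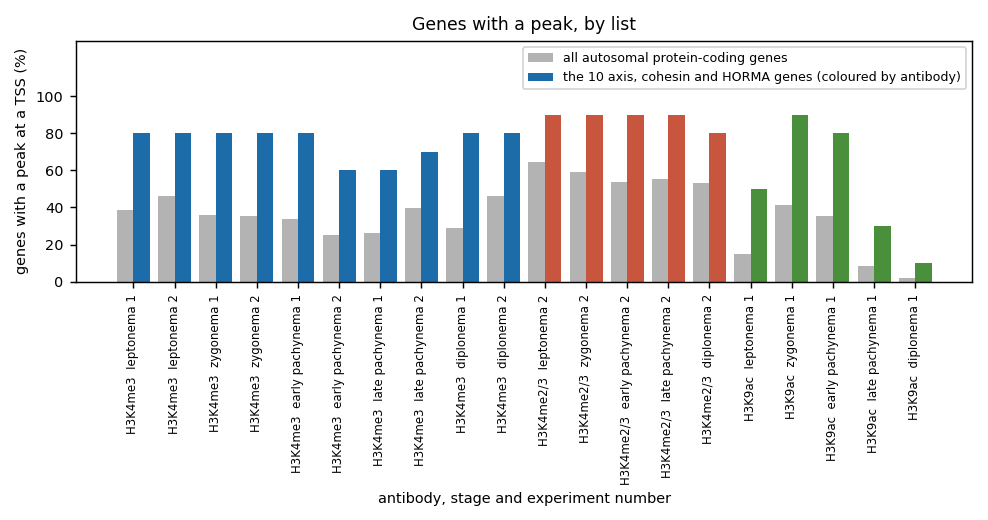
Share of genes in percent (y axis, from 0) with a peak at a TSS in each list (x axis). Grey bars stand for all 20722 genes and coloured bars for the 10 axis, cohesin and HORMA genes. The coloured bar is higher than the grey bar in each of the 20 lists, and in H3K9ac both are lowest at diplonema, where 1 of the 10 genes had a peak.

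Hormad1 encodes a HORMA-domain protein of unsynapsed axes and lies on chromosome 3 (95559677 to 95587671, plus strand). Its H3K4me3 width was 829 bp and 1106 bp at leptonema (experiments 1 and 2), 1297 bp and 976 bp at zygonema, 1045 bp and 629 bp at early pachynema, 440 bp and 761 bp at late pachynema, and 658 bp and 1012 bp at diplonema. The widest peaks were thus in zygonema experiment 1 and leptonema experiment 2 and the narrowest in late pachynema experiment 1, and the stages overlapped. In early pachynema experiment 2, late pachynema experiment 1 and diplonema experiment 1, the peak began 27 to 33 bp downstream of the TSS, while in the 4 leptonema and zygonema libraries it reached 247 to 394 bp upstream. A comparison of peak edges over all genes was not made.

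Hormad2, whose product also binds unsynapsed axes, lies on chromosome 11 (4345814 to 4441105, minus strand). Its H3K4me3 width was 740 bp and 1711 bp at leptonema, 583 bp and 150 bp at zygonema, 427 bp and 285 bp at early pachynema, and 921 bp and 1455 bp at diplonema. Neither late pachynema library had a peak there. The width of 150 bp in zygonema experiment 2 stood at percentile 1.69 of the widths in its list. This pattern, with a peak in all lists but the 2 of late pachynema, was shared by 13 genes in all, or 0.0627% of protein-coding genes. The exact patterns of Smc3 and Smc1b, each also absent from some lists, were shared by 0.888% and 1.9% of genes. With a required overlap of 250 bp, Hormad2 had an H3K4me3 peak in 7 lists, so its pattern changed. Hormad2 did have an H3K4me2/3 peak at late pachynema, of 1761 bp.

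Trip13, which encodes the ATPase that removes HORMADs, lies on chromosome 13 (73911347 to 73937784, minus strand), with the TSS of the divergent gene Brd9 27 bp upstream. Its width was 646 bp and 767 bp at leptonema, 837 bp and 370 bp at zygonema, 646 bp and 419 bp at early pachynema, 523 bp and 699 bp at late pachynema, and 744 bp and 882 bp at diplonema. The stages overlapped throughout. Each of the 10 peaks covered the Brd9 TSS too, so the lists do not assign them to either gene.

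Sycp2 encodes a scaffold of the axial element and lies on chromosome 2 (178345293 to 178407685, minus strand), with a second TSS 263 bp inside the gene. Its width was 1470 bp and 1433 bp at leptonema, 1317 bp and 1103 bp at zygonema, 652 bp and 350 bp at early pachynema, 441 bp and 522 bp at late pachynema, and 361 bp and 1482 bp at diplonema. All 4 leptonema and zygonema libraries were above 5 of the 6 later ones, the exception being diplonema experiment 2, which had the widest peak of all. In those 5 later libraries the peak began 145 to 245 bp downstream of the first TSS, whereas the 4 early peaks reached 211 to 603 bp upstream of it and that of diplonema experiment 2 reached 535 bp upstream. H3K4me3 peaks of Hormad1, Sycp3, Smc3 and Stag3 also began downstream of the TSS in some later lists. Peak edges were not compared over all genes.

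Sycp3, the major component of the axial element, lies on chromosome 10 (88459569 to 88473236, plus strand). Its width was 1191 bp and 2199 bp at leptonema, 1493 bp and 1062 bp at zygonema, 875 bp and 678 bp at early pachynema, 493 bp and 1112 bp at late pachynema, and 1844 bp and 2742 bp at diplonema. The 2 diplonema peaks stood at percentiles 96.0 and 98.9 of their lists. They reached 881 bp and 1665 bp upstream of the TSS, while in the other 8 libraries the upstream edge lay between 462 bp upstream and 130 bp downstream. With the H3K4me2/3 antibody, the peak reached 591 bp, 301 bp and 475 bp upstream at leptonema, zygonema and early pachynema, 1744 bp at late pachynema and 2534 bp at diplonema. The H3K9ac peak began 71 bp and 103 bp downstream of the TSS at zygonema and early pachynema, and reached 240 bp upstream at late pachynema and 405 bp at diplonema. With each of the 3 antibodies, the diplonema peak thus extended further upstream than those of the earlier stages that had a peak. Sycp3 was not alone in this: H3K4me3 and H3K4me2/3 peaks of Hormad2 also reached furthest upstream in diplonema experiment 2, by 761 bp and 1036 bp. The H3K4me3 peaks of Trip13 (537 bp) and Smc1b (664 bp) reached furthest there too, but their H3K4me2/3 peaks did so at late pachynema. At Hormad1, Sycp2, Smc3 and Stag3, the H3K4me3 peak reached furthest upstream at leptonema. The H3K4me3 and H3K4me2/3 lists of diplonema experiment 2 had the highest median peak width for their antibody, 773 bp and 1294 bp. Upstream edges were not compared over all genes.

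**Figure D3:**
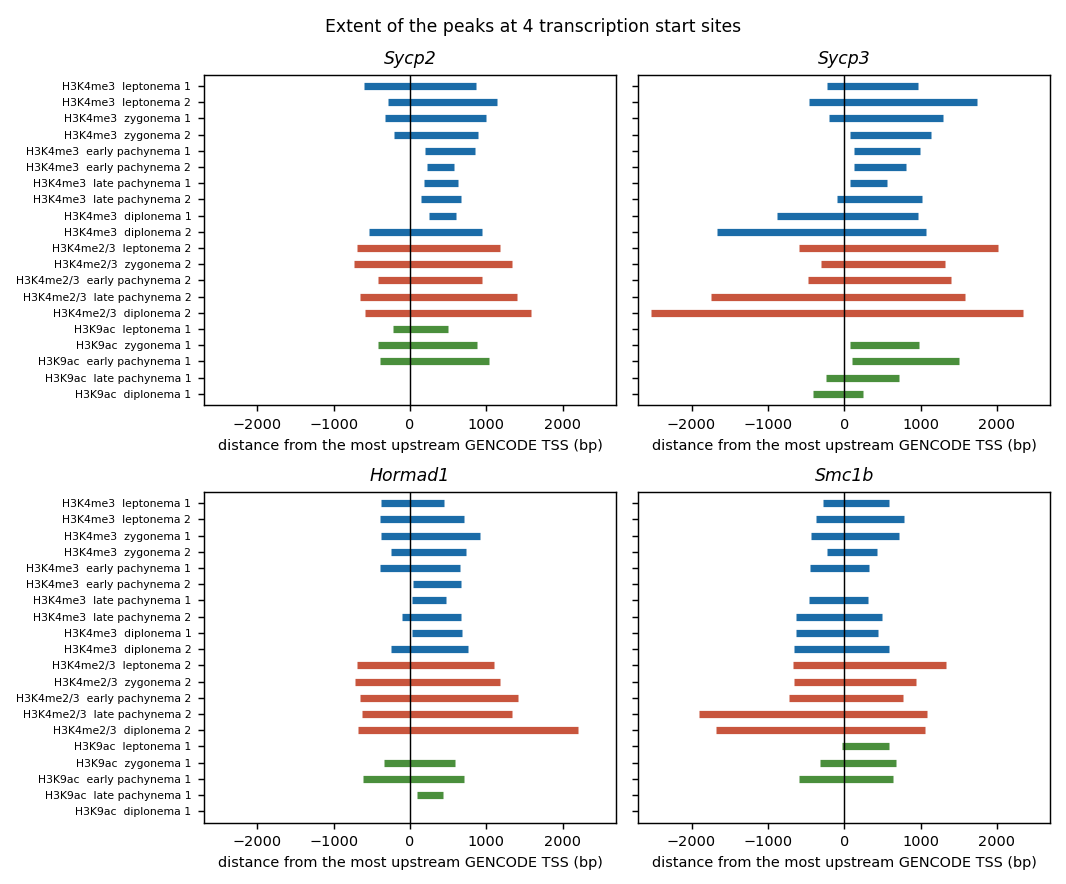
Start and end of each peak at the TSSs of Sycp2, Sycp3, Hormad1 and Smc1b, in bp from the most upstream GENCODE TSS (x axis, 0 at the vertical line, upstream to the left), for the 20 lists (y axis). Colours stand for H3K4me3 (blue), H3K4me2/3 (red) and H3K9ac (green). The Sycp2 H3K4me3 peaks of early and late pachynema begin 145 to 228 bp to the right of the line, and the Sycp3 peaks of diplonema extend far to the left.

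Smc1b encodes the meiotic SMC1 subunit of cohesin and lies on chromosome 15 (85064689 to 85131964, minus strand), with the TSS of the divergent gene Ribc2 114 bp upstream. Its width was 860 bp and 1153 bp at leptonema, 1160 bp and 661 bp at zygonema, 773 bp and none at early pachynema, 780 bp and 1138 bp at late pachynema, and 1066 bp and 1257 bp at diplonema. The 1 list without a peak, early pachynema experiment 2, was the shortest H3K4me3 list. All 9 peaks also covered the Ribc2 TSS. The upstream side, towards Ribc2, extended 225 to 441 bp in the leptonema and zygonema libraries and 454 to 664 bp in the 5 later libraries with a peak. The closest values were 441 bp in zygonema experiment 1 and 454 bp in early pachynema experiment 1. Such edges were not compared over all genes.

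Smc3, a subunit of mitotic as well as meiotic cohesin, lies on chromosome 19 (53600398 to 53645833, plus strand). Its width was 1029 bp and 2245 bp at leptonema, 1042 bp and 894 bp at zygonema, 335 bp and none at early pachynema, none and 1424 bp at late pachynema, and 307 bp and 2030 bp at diplonema. The later libraries were thus either narrow or without a peak in experiment 1, and without a peak or wide in experiment 2. Stag3, the meiotic STAG subunit, lies on chromosome 5 (138280240 to 138312393, plus strand), with a Gpc2 TSS 235 bp upstream. Its width was 1152 bp and 1218 bp at leptonema, 673 bp and 420 bp at zygonema, 901 bp and 469 bp at early pachynema, 440 bp and 1157 bp at late pachynema, and 513 bp and 1235 bp at diplonema. Of its 10 peaks, 2, both at leptonema, covered the Gpc2 TSS.

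Widths at leptonema and zygonema (4 libraries) were compared with those at the 3 later stages (6 libraries) to ask whether promoter H3K4me3 of these genes narrowed after zygonema. All 8 genes with a peak had a larger mean width in the early libraries, although Trip13 and Stag3 turned with equal list sizes and with width percentiles, and Trip13 also with the wider peaks of each list. None of the 8 passed the test, and Trip13, Stag3, Hormad2, Sycp3 and Smc1b each turned when 1 library or another was left out. The median difference over the 8 genes was 238 bp, and over the 11215 genes tested it was 91.0 bp, with 62.5% of genes wider in the early libraries. Sycp2 differed most, 1331 ± 165 bp (SD, n = 4) against 635 ± 430 bp (SD, n = 6), a difference of 696 bp (two-sided exact permutation test, p = 0.0476, Benjamini-Hochberg adjusted p = 0.279 over all genes tested). Smc3 measured 1302 ± 632 bp against 683 ± 844 bp, with an exact permutation p of 0.233 (adjusted 0.574). For Hormad1 the means were 1052 ± 199 bp and 758 ± 234 bp, with an exact permutation p of 0.0714 (adjusted 0.339). The differences of Hormad2 (281 bp), Sycp3 (196 bp), Smc1b (123 bp), Stag3 (79.9 bp) and Trip13 (2.83 bp) had exact permutation adjusted p-values of 0.722, 0.882, 0.892, 0.892 and 1.0. The early and later libraries overlapped for each of the 8 genes. The share of all genes past the adjusted threshold of 0.05 was 0%, and 17.1% had an unadjusted p of 0.05 or less, against 1 of the 8 genes (Sycp2). The test had 210 splits and a smallest p of 0.00476, which 468 genes reached, where at least 1069 would have been needed for a call.

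Within experiment 1, the early mean exceeded the later one at all 8 genes, by 909 bp at Sycp2, 822 bp at Smc3, 349 bp at Hormad1, 294 bp at Stag3, 271 bp at Sycp3, 212 bp at Hormad2, 137 bp at Smc1b and 104 bp at Trip13. Within experiment 2 it did so at 6 genes, by 483 bp at Sycp2, 418 bp at Smc3, 350 bp at Hormad2, 240 bp at Hormad1, 120 bp at Sycp3 and 109 bp at Smc1b, while the difference was -98.2 bp at Trip13 and -135 bp at Stag3. The summed width over the 10 Sertoli, Leydig and blood cell markers was 0 to 7212 bp in the early libraries and 0 to 288 bp in the later ones. The value of 7212 bp came from 1 library, the only one with an H3K4me3 peak at Sox9 or Gata4. Over the 5 spermatogonial markers the summed width was 436 to 3470 bp in the early libraries and 0 to 576 bp in the later ones. Of these, Etv5 (exact permutation p = 0.019, adjusted p = 0.196) and Dmrt1 (exact permutation p = 0.0333, adjusted p = 0.23) had wider means in the early libraries and did not pass the adjusted threshold. Dmrt1 had H3K4me3 peaks in 3 early lists and in no later list, which fixes its p whatever the widths. The part of either marker group in the widths of the 8 genes was not tested. H3K4me3 lists of the early stages also held more peaks, 9528 to 15699 against 4883 to 12071. The paper reports H3K4me3 at the sites of meiotic DNA breaks that was strongest at zygonema and gone by early pachynema. The part of such peaks in list length and in width percentiles was not tested. Purity also differed between the sorted populations and was lowest, per the paper, for zygonema experiment 2.

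**Figure D4:**
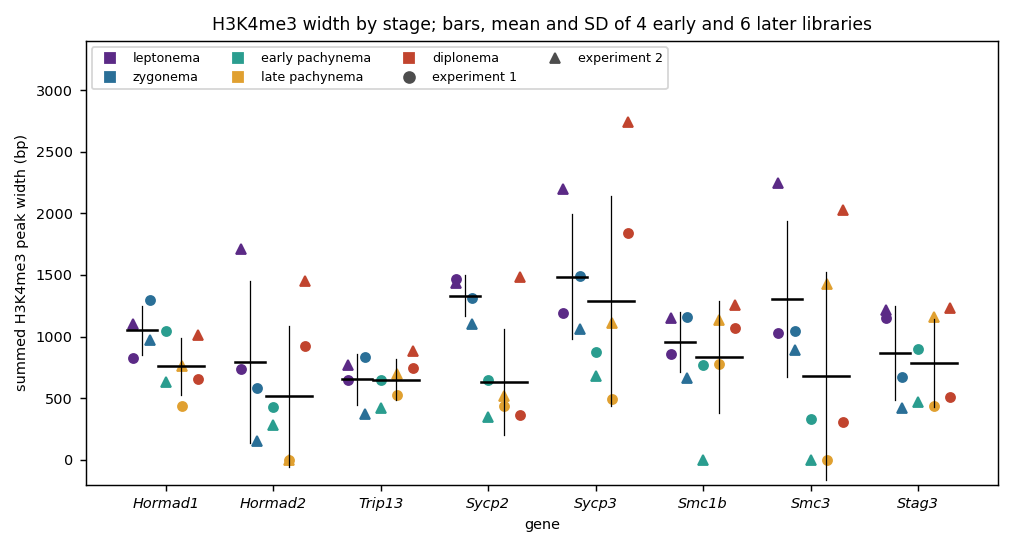
Summed H3K4me3 peak width in bp (y axis) of the 8 genes with a peak (x axis), with 1 point per library, coloured by stage and shaped by experiment (circles 1, triangles 2). Horizontal bars give the mean of the 4 leptonema and zygonema libraries (left) and of the 6 later libraries (right), and vertical lines the SD. Sycp2 shows the largest gap in means, with diplonema experiment 2, at 1482 bp, among the early values.

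The H3K4me2/3 lists were set beside H3K4me3 of the same experiment number to see which promoters were called by the Abcam antibody alone. The paper lists a different purity and amount of starting chromatin for these antibodies at early pachynema, and equal ones at the other stages. The early pachynema lists were therefore not a matched pair. Of the 10 genes, 9 had an H3K4me2/3 peak in each list up to late pachynema and 8 in the diplonema list. Over all genes, the shares in stage order were 64.7%, 59.4%, 53.7%, 55.4% and 53.3%. At the 8 genes with H3K4me3, a peak was present in all 5 lists. Over the 50 pairs of gene and stage, 37 had a peak with both antibodies, 7 with the Abcam antibody alone and none with the EpiCypher antibody alone. The 7 include Rec8, Smc1b and Smc3 at early pachynema, where the lists were not matched. The part of that difference in these calls was not tested. The Abcam peak was the wider in 36 of the 37 pairs, with a median ratio of 2.18. Over all genes, it was the wider in 98.7% of 39718 such pairs, with a median ratio of 2.43. The exception was Hormad2 at leptonema, with 1238 bp against 1711 bp. With 1 list per stage, 5 pairs of a gene cannot give a two-sided exact p below 0.0625, so no test was made.

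Rec8, the kleisin that keeps sister chromatids together until the second division, was 1 of these Abcam-only genes. It lies on chromosome 14 (55618037 to 55625395, plus strand). Its H3K4me2/3 width was 1196 bp at leptonema and 1068 bp at zygonema, 213 bp at early pachynema and 283 bp at late pachynema, with no peak at diplonema. The peaks of pachynema stood at percentiles 7.53 and 10.7 of their lists, against 66.5 and 63.4 at leptonema and zygonema. Rec8 and Sycp2l, from the list of related genes below, were among the 29.0% of genes without an H3K4me3 peak that had an H3K4me2/3 peak in at least 1 list. Within the 300 bp RefSeq promoter window, from 250 bp before to 50 bp after the curated start, Rec8 had 18 CpG dinucleotides, against a median of 15.0 over 15680 promoters. Of the 379 promoters with 18, 79.9% belonged to a gene with an H3K4me3 peak in at least 1 list.

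Rad21l encodes the other meiotic kleisin and lies on chromosome 2 (151645404 to 151668533 in GENCODE, minus strand). No list had a peak within 500 bp of its GENCODE TSS, which is also the start of the curated RefSeq transcript. All 3 predicted RefSeq transcripts begin 2089 bp further upstream, at position 151670622, and splice from there to the exon that holds the GENCODE TSS. The sequence printed above before that exon ends in ag, the bases of a splice acceptor, and has 1 CpG in 200 bases with a GC content of 23.0%. The 200 bases before the predicted start have 11 CpG and a GC content of 65.0%.

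At the predicted start, H3K4me3 peaks were present in 3 of 10 lists, with 592 bp and 1592 bp at leptonema and 548 bp in zygonema experiment 1. Zygonema experiment 2 and the 6 later libraries had none. The H3K4me2/3 peaks there were 1571 bp, 762 bp and 665 bp wide at leptonema, zygonema and early pachynema and 196 bp at diplonema, with none at late pachynema, and H3K9ac had a peak of 530 bp at zygonema only. Of these 8 peaks, those of leptonema experiment 2, with both antibodies, covered the start itself, and the other 6 began 19 to 135 bp downstream of it. All 8 held the stretch from 151670300 to 151670487. Its part outside the exons, in the first intron of the predicted transcripts, is shown because it is what the peaks share.
Rad21l, shared by 8 peaks, chr2:151670300-151670473, minus strand: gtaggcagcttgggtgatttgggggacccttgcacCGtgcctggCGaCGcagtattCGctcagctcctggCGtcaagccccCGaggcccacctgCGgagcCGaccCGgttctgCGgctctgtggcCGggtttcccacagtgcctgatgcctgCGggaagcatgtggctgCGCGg
The test was repeated with the starts of all RefSeq transcripts, an alternative chosen after these peaks were seen. Rad21l was then 683 bp wider in the early libraries (exact permutation p = 0.0333, adjusted p = 0.229 over 11258 genes). Its only H3K4me3 peaks were in 3 early lists, which fixes that p whatever the widths. The p therefore adds nothing to the calls themselves. Rec8 still had no H3K4me3 peak.

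**Figure D5:**
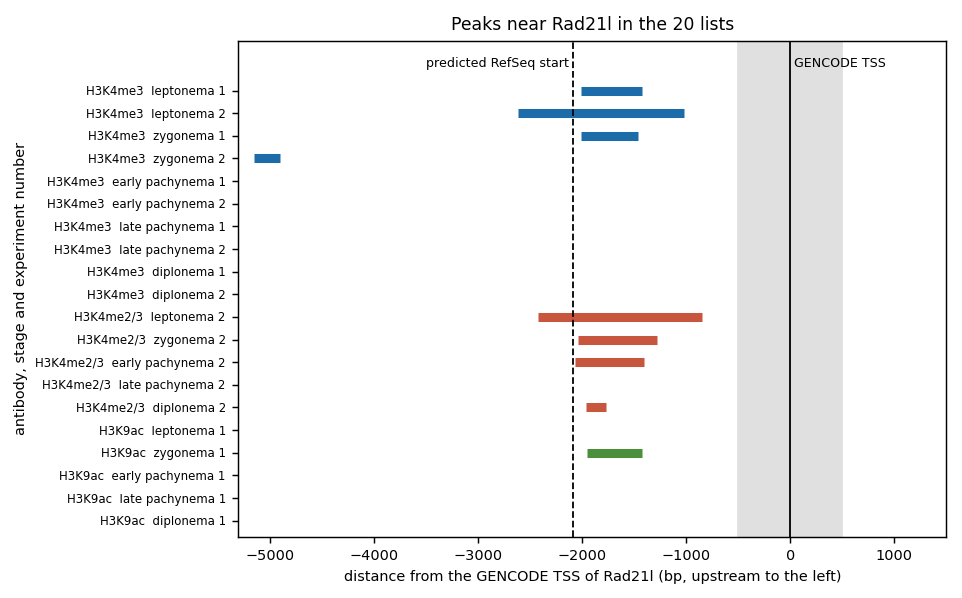
Peaks from 5000 bp upstream of the GENCODE TSS of Rad21l (solid line at 0, with the 500 bp window in grey), in bp (x axis, upstream to the left), for the 20 lists (y axis, coloured by antibody). The dashed line marks the start of the predicted RefSeq transcripts, 2089 bp upstream. No bar enters the grey window, 8 lists have a bar at or just downstream of the dashed line, and zygonema experiment 2 has 1 at the far left, 4902 to 5146 bp upstream.

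H3K9ac was set beside H3K4me3 of experiment 1. The leptonema list held 5 of the 10 genes, against 14.8% of all genes. Zygonema held 9, against 41.1%, and early pachynema 8, against 35.3%. Late pachynema held 3, against 8.27%, and diplonema 1, against 1.99%, and the lists differed as widely in length. The gene with a peak at diplonema was Sycp3, with 657 bp at percentile 87.3 of its list. Among genes with an H3K4me3 peak in both diplonema lists, 6.96% had an H3K9ac peak at that stage. Sycp3 and Trip13 had H3K9ac in 4 of 5 lists, with Sycp3 lacking it at leptonema and Trip13 at diplonema. The late pachynema peak counted for Trip13 was 178 bp wide and lay 379 to 556 bp upstream of its TSS, on the Brd9 side. With a required overlap of 250 bp, Trip13 had H3K9ac in 2 lists and Sycp3 in 4. Over the 50 pairs of gene and stage, 25 had a peak with both antibodies, 1 with H3K9ac alone (Rec8 at zygonema, 228 bp) and 13 with H3K4me3 alone. Where both were called, H3K9ac was the wider in 11 of 25 pairs, against 60.6% of 18831 pairs over all genes. At zygonema, the Trip13 peak was 2932 bp wide, at percentile 99.7 of the list, and ran from 784 bp upstream to 2147 bp downstream of the TSS. There, H3K4me3 of the same experiment had 837 bp at the TSS and a separate peak of 896 bp from 1364 to 2259 bp downstream, and H3K4me2/3 of experiment 2 was a single peak of 2779 bp.

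Few other peaks lay within the genes or 5000 bp around them. Besides those of Rad21l and Trip13, there was a peak inside Sycp2 in zygonema experiment 1, of 945 bp from 2220 to 3164 bp downstream of the TSS, which the H3K4me2/3 lists of leptonema and zygonema also held, with 545 bp and 797 bp. Smc3 had 4 other peaks, in 4 lists: H3K4me3 of 404 bp from 1070 to 1473 bp downstream of the TSS in diplonema experiment 1, beside the peak of 307 bp within 500 bp of the TSS, and of 878 bp further inside the gene in zygonema experiment 1, H3K4me2/3 of 488 bp upstream at late pachynema, and H3K9ac of 525 bp inside the gene at zygonema. Sycp3 had 2 such peaks, and Smc1b and Hormad1 had 1 each, all with the H3K4me2/3 antibody. Hormad2, Rec8 and Stag3 had none in the 20 lists.

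Sequence motifs known from germ cell and cell cycle promoters were searched on both strands of the same 300 bp RefSeq windows. The E2F word GCGGGAA was found at 4 of the 10 genes (Hormad1, Smc1b, Stag3 and Sycp3) and in 6.27% of 15680 promoters. The E-box CACGTG, bound by MAX and MGA, was found at 3 (2 matches each in Hormad1 and Sycp3, 1 in Stag3) and in 8.12% of promoters. The STRA8-MEIOSIN word CNCCTCAG matched at Hormad2 alone, and in 8.7% of promoters. Neither the MYB word AACNGTT (3.59% of promoters) nor the cyclic AMP response element TGACGTCA (2.48%) was found at the 10 genes, and the Sp1 word GGGCGG was found at 6 of them and in 48.6% of promoters. CpG counts in the window ran from 2 at Rad21l and 10 at Sycp2 to 34 at Trip13. Around the predicted start of Rad21l the window of the same length held 15 CpG, 1 E-box and 6 Sp1 words. These matches describe letters and not bound sites.

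The wider list of related genes held 25 autosomal genes: general cohesin subunits and regulators, the other SMC proteins, the other HORMA-domain proteins with the TRIP13 adaptor Mad2l1bp, and the axis partners Sycp2l and Ccdc36 (IHO1). A peak was present in all 10 H3K4me3 lists at 15 of them, against 18.0% of all genes, and 17 to 22 of the 25 had a peak in a given list, against 25.2% to 46.3% of all genes. Of the 14 cohesin subunits and regulators, 10 had a peak in all lists and none lacked it in every list, and the 4 other SMC genes had one throughout. The 2 genes without any H3K4me3 peak were Sycp2l, a paralogue of Sycp2, and Ccdc36, whose product promotes break formation on the axis. Sycp2l had H3K4me2/3 peaks of 801 bp at leptonema and 363 bp at zygonema, and Ccdc36 had no peak in the 20 lists. Of the 23 genes that could be tested, 12 had a wider mean in the early libraries, against 62.5% of all genes tested, with a median difference of 106 bp, against 91.0 bp. None passed the threshold of the exact permutation test after adjustment over all genes, and 6 of the 23 had an unadjusted p of 0.05 or less, against 17.1% of all genes tested.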

How the data were processed

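Peaks were analysed from 20 deposited BED lists, 1 per library. Per the labels and the methods, the authors aligned reads to mm10 with BWA 0.7.12 and called broad peaks per library with MACS2 2.1.2. Input of the same stage was the control for H3K4me3, and the control for H3K9ac is not given in the sources used here. The deposited lists give peak starts and ends without a score or read count, so neither depth nor the precision of a call can be read from them. No other kind of file was used here. The chip antibody label of the H3K9ac samples names H3K4me3 with a catalogue number that another sample gives for H3K9ac, and the sample titles were followed. The 31 samples without a list (inputs, 1 no-antibody control and a survey of marks) were not analysed here.

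A gene's value was the summed width of the distinct peaks overlapping, by 1 bp or more, the 500 bp on either side of its protein-coding TSSs (GENCODE M21, 52063 distinct TSSs), and 0 without a peak. Peaks ended within the chromosomes of GRCm38.p6, and 628 RefSeq promoters compared with that genome did not differ. Two-sided exact permutation tests compared the mean H3K4me3 width of 4 leptonema and zygonema with 6 later libraries at each gene with a peak in at least 1 library, with Benjamini-Hochberg adjustment over all genes and a threshold of 0.05. The labels number the experiments but do not say which animals they drew on, so p-values measure the spread between these libraries. Python 3.11.15, numpy 2.4.6, pandas 2.3.3, scipy 1.17.1 and pysam 0.24.0 were used. On simulated lists, 200 of 200 changed genes among 1500 were recovered, with 7 false calls. The changed genes were made 1500 bp wider in every early library and had a peak in every list. They were also a larger share of the genes than the 468 of 11215 that reached the smallest p in the real lists. There, 1069 would have been needed for a call, so the simulation does not show that the test could make calls in these data. The largest difference among the 10 genes was 696 bp, and recovery of changes of that size was not simulated. The 10 genes, the related genes, markers, motifs and tests were chosen with earlier results of these data known. The 10 genes are all described. Related genes were named if they had no H3K4me3 peak, passed the test or shared a peak with the 10, and other genes if a peak at the 10 covered their TSS. The genes of the promoter windows were matched by symbol, and all 10 were found. The alternatives were wider windows, larger overlaps, equal list sizes, wider peaks, all transcripts, joined peaks, shared peaks left out, other measures and filters, a replicate block and leaving out each library. RefSeq starts and the values within experiments were added after the data were seen.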

Additional observations from a re-analysis of the deposited data

Results flagged for a closer look

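Among the H3K4me3 widths of the 8 genes with a peak, tested as 16 groups of 4 early or 6 later libraries, 2 libraries lay far from the others of their group. About 1 group in 20 would be singled out by chance. At Smc3, leptonema experiment 2 had 2245 bp where the other early libraries had 894 to 1042 bp, a gap of 0.89 of the range of the group. At Sycp2, diplonema experiment 2 had 1482 bp where the other later libraries had 350 to 652 bp, a gap of 0.733 of the range. These are the H3K4me3 lists with the most genes called, 46.3% and 46.0%, and the part of list length in the 2 widths was not tested. Without diplonema experiment 2, Sycp2 was 866 bp wider in the early libraries (exact permutation test, adjusted p = 0.107), and without leptonema experiment 2, Smc3 was 306 bp wider (adjusted p = 0.872).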

How the results depend on the processing

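The count of genes past the threshold of the early-against-later test was 0 under each alternative, with RefSeq starts included. Leaving out a library or using the replicate block leaves fewer splits, so the smallest possible p is larger. It was 0.01 for the replicate block, against 0.00476 in the main test. A larger share of genes must then reach it for a call, so a count of 0 in those alternatives says little. At unadjusted p of 0.05 or less there were 1916 genes in GENCODE and 1927 in RefSeq. The adjusted p-values of the 8 genes ranged from 0.107 to 1.0 over all alternatives. The main test did not pair libraries by experiment number. Between stages, correlations of the deviations from stage means ran from -0.122 to 0.345 over 10 pairs of stages, and 2 exceeded 0.1. The highest, 0.345, was between late pachynema and diplonema, so libraries of the same experiment were not fully unrelated there. With the replicate block, in which the stages were exchanged within experiments (100 splits), the count of genes called was also 0, and the adjusted p of Sycp2 was 0.323. The direction turned in 14 of the 176 alternative values of single genes. Trip13 became wider in the later libraries with equal list sizes (-344 bp), with the wider peaks (-89.7 bp) and with width percentiles (-7.3 points), and by -23.0 to -57.8 bp without leptonema experiment 2 (-34.5), zygonema experiment 1 (-57.8), early pachynema experiment 2 (-43.8) or late pachynema experiment 1 (-23.0). Stag3 turned with equal list sizes (-193 bp), with percentiles (-1.3 points) and without leptonema experiment 1 (-15.5) or 2 (-37.5). Hormad2 (-23.7 bp) and Sycp3 (-42.0 bp) turned without leptonema experiment 2, and Smc1b (-44.3 bp) without early pachynema experiment 2. The cause was not tested. Leaving out 1 library at a time gave differences from -23.7 to 497 bp at Hormad2, -57.8 to 97.8 bp at Trip13, -44.3 to 222 bp at Smc1b, -37.5 to 228 bp at Stag3 and -42.0 to 486 bp at Sycp3.

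The mean number of the 10 genes with a peak per list was 7.5 for H3K4me3, 8.8 for H3K4me2/3 and 5.2 for H3K9ac. With equal list sizes it fell to 6.4 for H3K4me3 and 0.8 for H3K9ac, whose shortest list holds 516 peaks, and with the wider peaks to 6.2 for H3K4me3. Without peaks that also cover the TSS of another gene (Brd9, Ribc2 or Gpc2) it was 5.4 for H3K4me3 and 5.8 for H3K4me2/3. With RefSeq starts, which add Rad21l, it was 9.6 for H3K4me2/3. Leaving out each library gave 7.44 to 7.67 for H3K4me3, 8.75 to 9.0 for H3K4me2/3 and 4.25 to 6.25 for H3K9ac. Calls and widths have no read depth behind them in the lists, which limits the reading of an absent peak.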
